A study of Mus musculus with 18 samples.

Results

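RNA held by biotinylated *miR-92b* was compared between nuclear and whole cell lysates of Neuro2A (N2A) cells, a line from a mouse neuroblastoma. Its cells are labelled WT. The comparison used 6 of the 18 samples of the series, the 3 nuclear and the 3 whole cell samples that the labels name for *miR-92b*, and covered the 15579 tested loci among 52179 loci with a gene symbol. In this assay cells were transfected with a biotinylated microRNA mimic at 25 nM, lysed after 48 h, and the RNA bound to the mimic was collected through its biotin and sequenced. Nuclear and whole cell samples from cells given a biotinylated scrambled mimic (Scr) and from cells without a mimic (control), 3 samples per group, served as the background. A whole cell lysate also holds the nucleus, so each value sets a fraction against a whole that contains it. N2A is a single established line, and the labels do not say whether the samples of a group came from separate cultures. The p-values measure the spread between samples within a group, which was estimated from all 18 samples and may be technical.

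MicroRNAs guide Argonaute proteins to messenger RNAs through base pairing between the seed, near the 5′ end of the microRNA, and matching sites that often lie in the 3′ UTR. This pathway is best known in the cytoplasm, where it lowers translation and RNA stability, and Argonaute proteins have also been found in nuclei. Messenger RNAs of short, efficiently spliced housekeeping genes are mostly cytoplasmic, whereas several long noncoding RNAs, unspliced transcripts and RNAs with retained introns stay in the nucleus.

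The sequence of *miR-92b* and of a few matching sites is given first, because the pulldown is built on this pairing. The mature microRNA (RefSeq, GRCm38.p6, chr3:89227126-89227147, minus strand) is printed with its seed, bases 2 to 8, in capitals. The sites are from 3′ UTRs of the GENCODE annotation (GRCm38), and capitals mark the 8 bases GTGCAATA, which pair with the seed and end in an A. The Pcmtd1 site lies at chr1:7170336-7170363 (plus strand), the Dkk3 site at chr7:112118164-112118191 (minus), the Avl9 site at chr6:56761476-56761503 (plus), the Syne1 site at chr10:5336962-5336989 (minus), the Atp2a2 site at chr5:122453678-122453705 (minus) and the Pgam1 site at chr19:41918643-41918660 (plus). The annotated UTR of Pgam1 ends with the last base of the match. Pcmtd1 and Dkk3 are shown because their values are described below. Avl9 and Syne1 (higher in nuclear samples) and Atp2a2 and Pgam1 (lower) are the loci past the test in each direction with the highest mean count among those with such a site, and were chosen after their values were seen.
mmu-miR-92b-3p: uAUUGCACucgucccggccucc
Pcmtd1: caacgtatgaGTGCAATActaattcaag
Dkk3: actggtagatGTGCAATAgaaatggcta
Avl9: tttcttttttGTGCAATAtaaacatttg
Syne1: tcaatattgtGTGCAATAtcattaaact
Atp2a2: acagatgttgGTGCAATAcaagtattgt
Pgam1: aaggagtgatGTGCAATA

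The files give a normalized count for each locus, the reads on it scaled to the size of the library. A locus can join several genes, such as a snoRNA and its host, and its value cannot be split between them. The 6 samples held between 4096874 and 16931731 reads on loci with a symbol. Whole cell sample 3 stood apart from the other whole cell samples. At a common depth of 3752991 reads it held 13823 loci with a symbol, against 15786 and 17058 in the other whole cell samples and 20084 to 20720 in nuclear samples, and it had the lowest weight (0.163) when limma estimated sample weights. The markers of the fractions followed the labels. Malat1 and Neat1 were higher and Gapdh, Actb and Tubb5 were lower in nuclear samples, while Miat was at most 3.86 and could not be tested. Of 17 neuroblastoma markers with a locus, 14 were tested, including Phox2a, Hand2 and Th, while Nefl was at 0 in all 6 samples and Nefm at no more than 2.57. Of 8 blood and immune markers 0 reached the level needed for a test, and of 8 fibroblast and muscle markers 1 did (Acta2, at most 41.4), as did 4 of 8 glial and 2 of 8 epithelial and endothelial markers.

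Loci were named by a rule on size, precision and abundance. The following named loci fall outside it and were chosen after their values were seen: those of Tug1, Dleu2, Mir29c, Meg3, Rsrp1, Tra2b, Srsf4, Hnrnpa2b1, Hnrnpa0, Hnrnpc, Hnrnpf, Snrpd2, Sf3a1, Smarce1, Chd8, Rps4x, Rpl35a, Rps4l, Mrpl9, Ndufa6, Eif3f, Eif5a, Eif2s3x, Eif3b, Kars, Qars, Ctsd, Cfl1, Ldha, Pgk1, Hist2h2be, Hist2h3c2, Auts2, Dlg2, Nlgn2, Stmn3, Gap43, Kcnma1, Kcnh1, Mir17hg and Mcm7, and those marked so below.

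The main comparison asked which RNAs recovered with *miR-92b* differed in level between the nuclear and the whole cell lysate. Among the loci that were higher in nuclear samples were long noncoding RNAs of the nucleus and transcripts of CLK and SR family splicing regulators. Among those that were lower were transcripts of the mitochondrial genome, ribosomal proteins, translation factors, chaperones and the cytoskeleton. Values are given as the log2 difference, which is the mean of log2(normalized count + 1) in nuclear samples minus that in whole cell samples, with its standard error (SE), tested with limma at an adjusted p-value of 0.05. Of the 15579 loci, 1038 were higher (6.66%) and 1033 lower (6.63%) in nuclear samples, 13.3% together. Without whole cell sample 3 the numbers were 444 (2.85%) and 531 (3.41%). With the 2 compared groups fitted alone, without the spread of the other groups, they were 134 and 463. Leaving out nuclear sample 1, 2 or 3 gave 502, 454 and 443 higher and 711, 669 and 694 lower loci, and leaving out whole cell sample 1 or 2 gave 1731 and 1547 higher and 1183 and 1213 lower. In pooled lysates, fewer cells with a transcript and less of it per cell cannot be told apart, and because counts are relative to the library, a difference is one of shares.

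The median log2 difference of all tested loci was 0.26, and 0.12 without whole cell sample 3. Changes are therefore read against this shift. The share of higher loci among those past the test was 50.1%, and it was 36.5% after centring each sample on its median log2 ratio, 59.1% after rescaling to the same median and 24.7% on the FPKM table. Nuclear values lay above all whole cell values at 3062 loci (19.7%) and below all of them at 2574 loci (16.5%). In the quintile of loci with the lowest mean count, the median difference was 1.55 and 2.21% of loci were higher. In the quintile with the highest mean count, the median was 0.05, 17.7% of loci were higher and 16.9% lower. Of the 1038 higher loci, 44 were at 0 in all 3 whole cell samples, so the sizes of their log2 differences depend on the added count of 1 and are not given as folds.

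**Figure D1:**
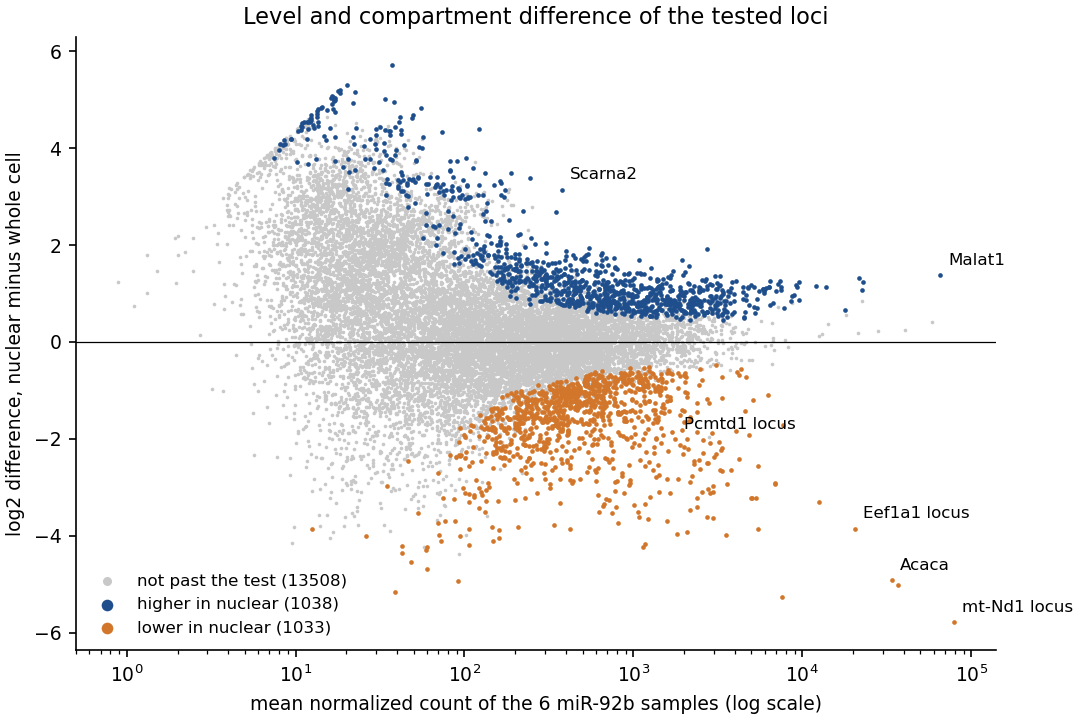
Each point is 1 of the 15579 tested loci, with the mean normalized count of the 6 *miR-92b* samples (x, log scale) against the log2 difference of nuclear minus whole cell samples (y). Blue points are the 1038 loci past the test and higher in nuclear samples, orange points the 1033 that are lower, and the labelled points include Malat1 at 1.37 and the mt-Nd1 locus at -5.79.

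Among loci of 1 named gene whose groups did not overlap, the smallest adjusted p-values on the higher side were those of Scarna2, Zcchc7, Ctsq, Ahnak and Ehbp1. Ahnak, a very large scaffold protein with 1 giant coding exon, had 5524, 5818 and 5772 normalized counts in nuclear samples against 2834, 2722 and 1784 in whole cell samples (log2 difference 1.25, SE 0.19, limma adjusted p = 7.73e-05). Zcchc7, a zinc knuckle protein of the nuclear RNA-degrading TRAMP-like complex, had 2347, 2164 and 2063 against 1126, 917 and 797 (log2 difference 1.22). In both, the lowest nuclear value lay well above the highest whole cell value. On the lower side they were those of Gnb1, Acaca, Calm3, Hsp90ab1 and Mrfap1. Gnb1, a beta subunit of heterotrimeric G proteins, had 538, 668 and 747 against 4419, 4208 and 7070 (log2 difference -2.98, SE 0.23, adjusted p = 8e-08). Calm3, a calmodulin gene, had 239, 184 and 201 against 1352, 1218 and 2489 (log2 difference -2.95). Larger sizes were measured at loci with low counts. Timp3, an inhibitor of metalloproteinases, had 112, 52.9 and 57.9 in nuclear samples against 0, 1.43 and 0, and Mpst, a sulfurtransferase, had 4.10, 6.06 and 3.86 against 113, 234 and 187 (log2 difference -4.94, SE 0.73, adjusted p = 6.69e-05).

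Several long noncoding RNAs that act in the nucleus were higher. Of 22 tested loci of this list, 9 were higher (40.9%, against 6.66% of all loci), with a median of 0.94 over the list, and 7 of 9 stayed past the test without whole cell sample 3. Of the 22 loci, 16 were higher and 0 lower at an unadjusted p-value below 0.05, and edgeR also called 9 higher and 0 lower. With the 2 compared groups fitted alone, limma called 1 higher and 0 lower. Malat1, an abundant RNA of nuclear speckles, had 103245, 89319 and 86148 normalized counts in nuclear samples 1 to 3 against 47041, 42614 and 22763 in whole cell samples 1 to 3. The groups did not overlap, and whole cell sample 3 was the lowest (log2 difference 1.37, SE 0.28, limma adjusted p = 0.00189). Malat1 was not past the test with the 2 groups fitted alone (limma adjusted p = 0.208).

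The locus of Neat1, the scaffold RNA of paraspeckles, had 36168, 27029 and 28042 in nuclear and 16521, 14046 and 7677 in whole cell samples (log2 difference 1.31, SE 0.25, adjusted p = 0.000968). The locus of Xist, which coats the inactive X chromosome, had 35116, 28820 and 30336 in nuclear and 19270, 17204 and 7059 in whole cell samples (log2 difference 1.24, SE 0.27, adjusted p = 0.00326). In both loci every nuclear sample was above every whole cell sample. Neither passed the test with the 2 groups fitted alone (limma adjusted p = 0.106 for Neat1 and 0.153 for Xist). Kcnq1ot1, an antisense RNA that silences an imprinted cluster, had 10748, 9713 and 10074 against 5457, 6117 and 2280 (log2 difference 1.26, SE 0.24, adjusted p = 0.00131). The loci of Tug1 (0.77), Dleu2 (1.03), the host of Mir29c (0.97) and a pair of Snhg14 loci (1.57 and 0.60) were the other members past the test. The locus of Meg3 had a log2 difference of 3.80 that did not pass it (adjusted p = 0.0915). The libraries were prepared by a stranded kit, but whether the counting used strand is not given in the sources used here, so reads of antisense RNAs such as Kcnq1ot1 may include those of the overlapping gene.

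Long noncoding loci were rarely lower, whereas their share of higher loci depended on the setting. GENCODE release M21 matched 13850 tested loci of 1 symbol, of which 861 were higher (6.22%) and 875 lower (6.32%). Of 1800 loci of long noncoding classes, 152 were higher (8.44%) and 4 lower (0.222%), with a median of 1.41. Without whole cell sample 3, 2.33% of them were higher, against 2.60% of all matched loci (median 0.65), and edgeR called 5.22% higher, against 5.15%, so the share of higher loci was then close to that of all loci. Among them, 64 of 880 antisense loci were higher (7.27%), which was 1.93% without whole cell sample 3 and 4.20% by edgeR, both below the share of all matched loci. Of the antisense loci 0 were lower by limma, by edgeR or at an unadjusted p-value below 0.05. In the class TEC, single transcripts still awaiting experimental support, 102 of 829 loci were higher (12.3%, and 4.10% without whole cell sample 3) and 2 lower. Pseudogenes had 56 of 506 loci higher (11.1%, and 3.75% without whole cell sample 3) and 15 lower. The protein-coding loci had 519 of 10570 higher (4.91%) and 851 lower (8.05%), with a median of 0.01 that was -0.13 after centring.

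Small nucleolar RNAs (snoRNAs) and small Cajal body RNAs (scaRNAs), which guide chemical modification of ribosomal and spliceosomal RNAs, split by the gene they were joined with. Of 67 tested loci that hold one by a list of symbols, 7 were higher (10.4%, against 6.66% of all loci) and 28 lower (41.8%, against 6.63%). However, 64 of them were joined loci. The 20 loci joined with a ribosomal protein gene had 19 lower and a median of -2.48, and the other 47 had 7 higher, 9 lower and a median of -0.04. GENCODE classed 40 tested loci of 1 symbol as snoRNA, most of them outside this list. Of these 40, 9 were higher (22.5%, against 6.22% of all matched loci) and 0 lower, with a median of 1.18. Without whole cell sample 3, 2 of them were higher (5%, against 2.60%). Scarna2, which lies alone, had 619, 741 and 675 normalized counts in nuclear samples against 69.3, 70.0 and 89.2 in whole cell samples. It was higher in nuclear samples by 3.14 (SE 0.39, limma adjusted p = 9.38e-06), and by 3.26 without whole cell sample 3. Of 15 long noncoding hosts of snoRNAs, 3 were higher (20%, against 6.66% of all loci), namely the loci of Gas5 (1.03), Snhg15 (0.98) and Snhg17 (0.85). Without whole cell sample 3, 13.3% were higher, against 2.85% of all loci, and the Gas5 locus was not past the test (limma adjusted p = 0.192). Because RNA was selected by its poly(A) tail and mature snoRNAs and scaRNAs mostly lack one, these values need not reflect the mature forms.

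Loci that hold a microRNA gene gave 42 higher (19.4%, against 6.66% of all loci) and 21 lower (9.68%, against 6.63%) of 217 tested. Without whole cell sample 3, 10.1% were higher and 4.15% lower, against 2.85% and 3.41% of all loci. Of the 217 loci, 193 joined several symbols, and of the 24 with 1 symbol 10 were higher. A locus of 1 symbol can still lie in a far wider listed region. Mir708, of 109 bases, is listed within 96170874 to 97064758 of chromosome 7, so which transcript its reads came from is uncertain. Mir708 had 268, 292 and 292 in nuclear and 187, 44.3 and 13.4 in whole cell samples (log2 difference 2.52, SE 0.55, limma adjusted p = 0.00378). Mir218-2 had 1554, 1040 and 1179 against 908, 785 and 349, and its difference of 0.98 was not past the test without whole cell sample 3 (adjusted p = 0.15). Both were chosen after their values were seen. A read on such a locus comes from a longer transcript, since mature microRNAs carry no poly(A) tail for the selection used here. The locus of Mir17hg, the host of a cluster that includes a relative of *miR-92b*, had 761, 648 and 604 in nuclear and 328, 166 and 127 in whole cell samples, 1.80 higher (SE 0.28, adjusted p = 0.000132). The locus joining Mcm7, Mir25 and Mir93, another host of the family, had 362 to 392 in nuclear and 388 to 628 in whole cell samples, which overlap, and did not pass the test (log2 difference -0.50, adjusted p = 0.324).

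Several splicing regulators, which are known to control themselves through retained introns or poison exons, were higher in nuclear samples. Of 19 tested CLK kinases and other genes known for introns that detain their RNA in the nucleus, 10 were higher (52.6%, median 0.72), against 6.66% of all loci. Without whole cell sample 3, 5 were higher (26.3%, against 2.85%). At an unadjusted p-value below 0.05, 15 were higher and 0 lower, and edgeR called 8 and 0. With the 2 compared groups fitted alone, limma called 0 higher and 0 lower. Nktr, a cyclophilin-related protein with an SR domain, had 6424, 5713 and 5480 against 4037, 3691 and 1551 (log2 difference 1.04, SE 0.24, limma adjusted p = 0.00498). Rsrp1 (1.37), Ccnl1 (1.02), Tra2b (0.85), Luc7l2 (0.80) and Son (0.72) were also higher, and Luc7l2 and Son were not past the test without whole cell sample 3 (adjusted p = 0.0698 and 0.061).

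Of 10 SR proteins, which recognise exonic splicing enhancers, Srsf2 (1.07), the Srsf4 locus (0.95), Srsf11 (0.92) and Srsf7 (0.75) were higher, and Srsf2 alone of these stayed past the test without whole cell sample 3 (adjusted p = 0.00255). The higher SR proteins were 40% of those tested, against 6.66% of all loci, and 10% against 2.85% without whole cell sample 3. With the 2 compared groups fitted alone, 0 of the 10 SR proteins were past the test. The hnRNPs, which bind nascent RNA, went both ways. Hnrnpa2b1 (1.12), Hnrnph1 (0.88) and the Hnrnpu locus (0.61) were higher, and Hnrnpa0 (-1.97), Hnrnpc (-1.25), Hnrnpa1 (-0.69) and Hnrnpf (-0.62) were lower. Hnrnpa2b1 had 5768, 4726 and 4811 in nuclear and 2976, 3137 and 1372 in whole cell samples. Hnrnpc had 298, 301 and 280 in nuclear and 513, 657 and 1004 in whole cell samples. In neither gene did the groups overlap. Core proteins of the spliceosome had 4 higher, among them Sf3b1 (0.81) and Prpf38b (0.86), and 2 lower of 34, Snrpd2 (-2.65) and Sf3a1 (-0.84). These were shares of 11.8% and 5.88%, against 6.66% and 6.63% of all loci. The medians of the hnRNPs (0.03) and of the core proteins (0.01) turned negative after centring (-0.10 and -0.13).

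Zinc finger genes of the Zfp series, which largely encode DNA-binding repressors, had 35 of 351 loci higher (9.97%, against 6.66% of all loci) and 5 lower (1.42%, against 6.63%). Without whole cell sample 3, 21 were higher (5.98%, against 2.85%) and 4 lower (1.14%, against 3.41%). Zfp292 had 4225, 3777 and 4168 against 2510, 2419 and 1508 (log2 difference 0.95, SE 0.18, limma adjusted p = 0.000976). Chromatin remodelers and histone methyltransferases had 5 higher of 51 (9.80%, against 6.66% of all loci) and 1 lower. Without whole cell sample 3, 1 was higher (1.96%, against 2.85% of all loci), a share no higher than that of all loci. The higher members were Smarce1 (0.98), which stayed past the test, Chd8 (0.80), Chd6 (0.79), the Chd2 locus (0.65) and Kmt2c (0.59). The median of that list was 0.07 and turned to -0.07 after centring. Nuclear pore proteins, which act at the envelope but are made in the cytoplasm, had 1 locus of 23 past the test, Pom121, which was lower (-0.77).

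**Figure D2:**
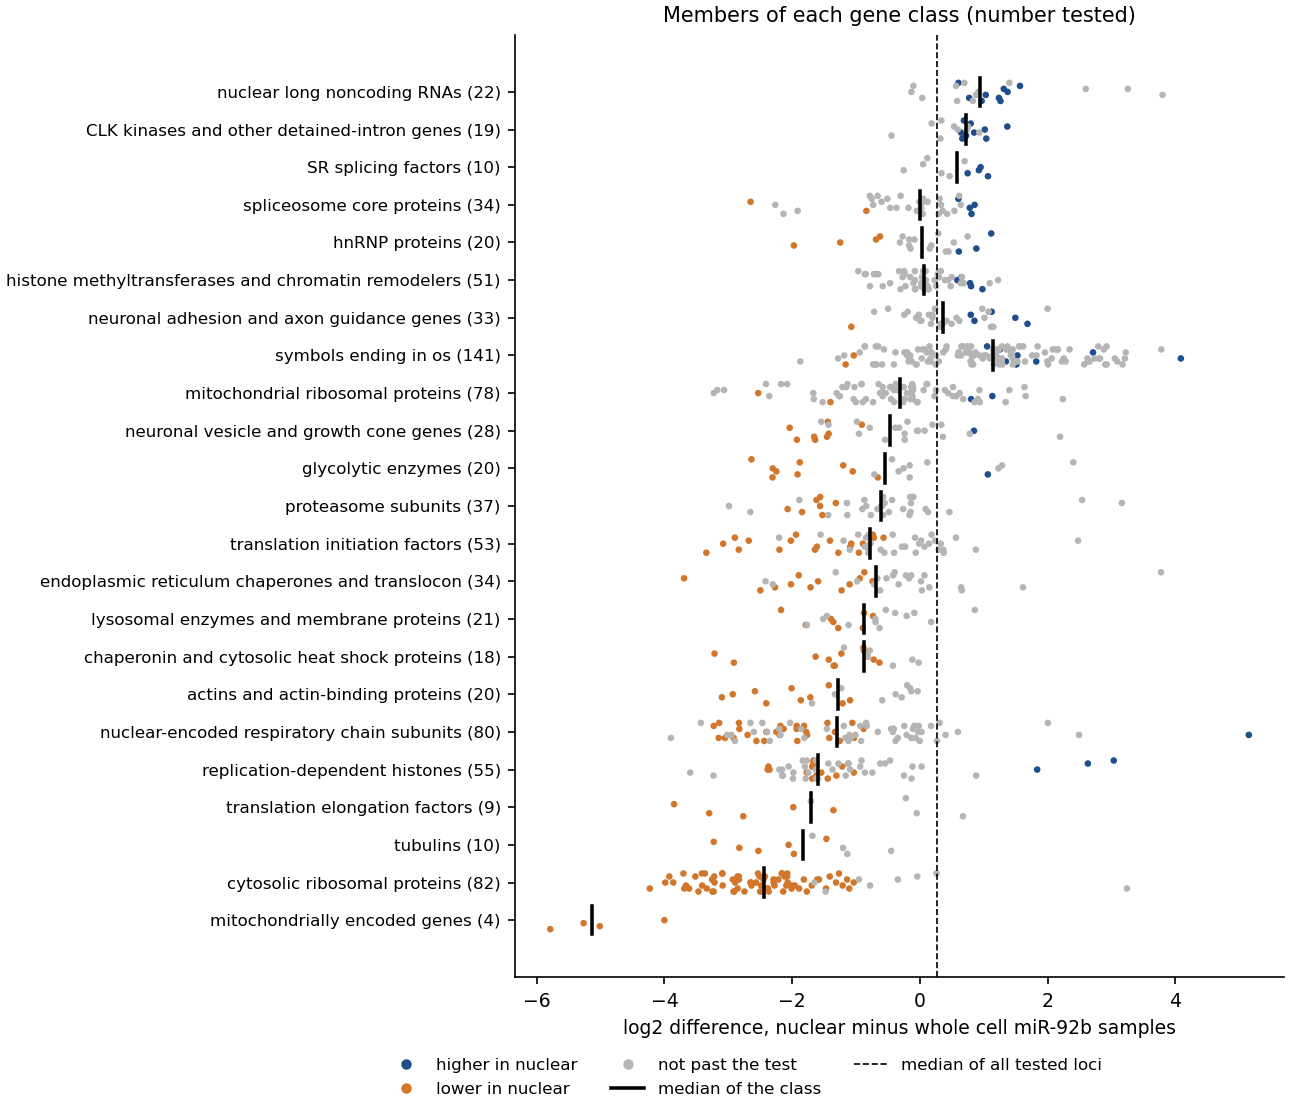
Each point is a tested locus of the gene class named on the y axis, with the number tested in parentheses, and the x axis is the log2 difference of nuclear minus whole cell *miR-92b* samples. Blue points were past the test and higher, orange points past it and lower, grey points not past it, bold bars are class medians (from 1.14 for symbols ending in os, mostly opposite-strand transcripts, to -5.14 for mitochondrially encoded genes) and the dashed line is the median of all tested loci, 0.26.

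On the lower side, the transcripts of the mitochondrial genome had the lowest median of the lists (-5.14). These polyadenylated RNAs are made and kept in mitochondria. A joined locus of mt-Nd1 and mt-Nd2, which also takes in the mitochondrial ribosomal RNAs, had 1404, 2379 and 3427 in nuclear samples against 76017, 82370 and 309541 in whole cell samples (log2 difference -5.79, SE 0.65, limma adjusted p = 3.68e-06). It took 0.0242% to 0.0594% of the counts of nuclear samples, 1.33% and 1.41% of whole cell samples 1 and 2, and 4.60% of whole cell sample 3. The locus with mt-Co1 (-5.01) and the mt-Cytb locus (-5.27) were lower as well. All 4 tested loci were lower, against 6.63% of all loci, and 3 without whole cell sample 3.

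Cytosolic ribosomal proteins, the building blocks of the ribosome, were the list with most members past the test in 1 direction by share among lists of 10 or more loci. Of 82 tested loci, 74 were lower (90.2%, against 6.63% of all loci) with a median of -2.44, and 66 without whole cell sample 3 (median -1.87). At an unadjusted p-value below 0.05, 76 were lower and 0 higher, and edgeR called 75 and 0. With the 2 compared groups fitted alone, limma called 57 lower and 0 higher. Rplp0, of the ribosomal stalk, had 438, 554 and 657 in nuclear and 6369, 3677 and 21059 in whole cell samples (log2 difference -3.86, SE 0.47, limma adjusted p = 7.76e-06). Rps4x had 306, 355 and 323 against 4207, 2492 and 13467 (-3.99), and Rpl35 had 72.4, 112 and 122 against 1492, 1171 and 3871 (-4.23). In each of these the groups lay far apart and whole cell sample 3 was the highest. The members not past the test included Rpl35a, with 732, 471 and 602 in nuclear and 562, 480 and 837 in whole cell samples (log2 difference -0.04), and Rps4l, with 36.9, 43.1 and 28.3 against 56.7, 0 and 0. Because ribosomal protein genes have numerous near-identical processed pseudogenes, how reads were shared out among the copies is uncertain.

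Mitochondrial ribosomal proteins, for comparison, had 2 higher and 2 lower of 78 (median -0.31), although no test compared the lists. These were 2.56% in each direction, against 6.66% and 6.63% of all loci. The locus of Mrps6, which also holds Slc5a3, had 16741, 10988 and 10243 in nuclear and 6656, 7201 and 3713 in whole cell samples (1.13), and Mrps9 (0.80) was the other higher member. Mrpl9 (-2.53) and Mrpl30 (-1.40) were lower. Nuclear-encoded subunits of the respiratory chain had 29 lower (36.25%, against 6.63% of all loci) and 1 higher (1.25%, against 6.66%) of 80 (median -1.30). Without whole cell sample 3, 13 were lower (16.25%, against 3.41%) and 1 higher. Atp5a1, a subunit of ATP synthase, had 341, 346 and 278 against 1483, 1204 and 2942 (log2 difference -2.44, SE 0.25, limma adjusted p = 1.54e-06). The higher member was 1 of 2 loci listed as Ndufa6, with 42.3, 69.4 and 23.1 in nuclear samples against 0, 0 and 0.637 in whole cell samples, while the other had 178, 98.7 and 117 against 99.9, 92.8 and 229 and overlapped.

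Many translation factors were lower. Of 9 elongation factor loci 5 were lower (55.6%, against 6.63% of all loci), and the same number without whole cell sample 3 (against 3.41% of all loci). The locus of Eef1a1, which brings aminoacyl-tRNA to the ribosome, had 1934, 2291 and 2261 in nuclear and 24424, 16356 and 75335 in whole cell samples (log2 difference -3.85, SE 0.42, limma adjusted p = 2.53e-06). Eef2, the translocase, had 1713, 2107 and 2163 against 15232, 11488 and 42643 (-3.30). Every whole cell value of both loci was more than every nuclear value. Of 53 initiation factors 20 were lower (37.7%, median -0.78), ranging from Eif3f (-3.34), Eif5a (-3.08) and Eif2s3x (-2.90) to the Eif3b locus (-0.57). Without whole cell sample 3, 13 were lower (24.5%). Cytosolic aminoacyl-tRNA synthetases, which charge tRNAs, had 5 lower of 20 (25%, against 6.63% of all loci), including Kars (-2.54), Qars (-2.39) and Gars (-0.95). Lars was higher (0.63) but not without whole cell sample 3 (adjusted p = 0.061). Pabpc1, the cytoplasmic poly(A)-binding protein, had 1023, 1068 and 1178 in nuclear and 4188, 3634 and 8584 in whole cell samples (-2.22), and was chosen after its values were seen.

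Parts of the protein folding, degradation and secretion lists were lower too. Of all tested loci 6.63% were lower, and 3.41% without whole cell sample 3. Of 18 chaperonin and cytosolic heat shock loci 12 were lower (66.7%), led by the Hspa8 locus (-3.22) and Hsp90ab1 (-2.91), and 6 (33.3%) without whole cell sample 3. Hsp90ab1 had 1821, 1451 and 1280 in nuclear and 9799, 7792 and 18957 in whole cell samples. Endoplasmic reticulum chaperones and translocon subunits, whose RNAs are translated on the membrane continuous with the nuclear envelope, had 12 lower of 34 (35.3%). Without whole cell sample 3, 9 of them were lower (26.5%). Canx, a membrane lectin chaperone, had 904, 1028 and 1006 against 2838, 3458 and 6350 (log2 difference -2.02, SE 0.24, limma adjusted p = 6.66e-06). Lysosomal proteins had 8 lower of 21 (38.1%), among them the Ctsd locus (-2.17), Psap (-1.28) and Lamp1 (-0.89), and 2 (9.52%) without whole cell sample 3. Proteasome subunits had 7 lower of 37 (18.9%), such as Psma6 (-2.07) and Psmb4 (-1.62), and 2 (5.41%) without whole cell sample 3. Cholesterol synthesis had 4 lower of 21, with Cyp51 (-1.03) and Hmgcs1 (-0.99) among them, and 1 without whole cell sample 3.

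Many cytoskeletal and glycolytic genes were lower, and 1 glycolytic gene was higher. Of the tubulins 60% were lower, of the actins and their partners 50% and of the glycolytic loci 45%, against 6.63% of all loci. Without whole cell sample 3 these shares were 40%, 40% and 30%, against 3.41%. The higher glycolytic gene made up 5% of its list, against 6.66% of all loci. Tubulins had 6 lower of 10, with Tubb5 at 751, 822 and 949 in nuclear and 5827, 5092 and 16347 in whole cell samples (log2 difference -3.23, SE 0.35, limma adjusted p = 2.53e-06). Actins and their partners had 10 lower of 20, including the Actg1 locus (-2.93), Cfl1 (-2.58) and Actb (-2.41). Of 20 glycolytic loci 9 were lower, among them Gapdh (-2.64), Ldha (-2.31), Pgk1 (-2.25) and Aldoa (-1.92). Pfkp, the platelet form of phosphofructokinase, was the member that was higher, with 10371, 9377 and 9945 in nuclear and 6733, 5238 and 2997 in whole cell samples (log2 difference 1.06, SE 0.21, adjusted p = 0.00136), and it stayed past the test without whole cell sample 3 (0.74).

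Replication-dependent histone loci, whose main transcripts end in a stem-loop and not in a poly(A) tail, had 17 lower and 3 higher of 55 (median -1.60). These were 30.9% lower and 5.45% higher, against 6.63% and 6.66% of all loci. Without whole cell sample 3, 1 remained lower, Hist2h4 (1.82%, against 3.41% of all loci), and 2 higher. Hist2h4 had 227, 225 and 253 in nuclear samples against 442, 500 and 1969 in whole cell samples, so the third value was far above the other two. The 3 higher loci lie in the Hist2 cluster, and Hist2h2be had 163, 223 and 237 in nuclear samples against 108, 7.14 and 40.2. A joined locus with Hist2h3c2 was lower (-1.54) while Hist2h3c2 listed alone was higher (1.84), so how reads were shared out among these near-identical copies is uncertain.

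Genes of neurons went both ways. Of 33 adhesion and axon guidance genes, 5 were higher (15.2%, against 6.66% of all loci) and 1 lower (3.03%, against 6.63%). Without whole cell sample 3, 4 were higher (12.1%, against 2.85%) and 0 lower. Lsamp, an adhesion molecule of limbic neurons, had 1517, 1614 and 1663 in nuclear and 754, 653 and 247 in whole cell samples (log2 difference 1.69, SE 0.27, limma adjusted p = 0.000208). The Auts2 locus, the teneurin Tenm4 (1.13), the guidance cue Slit2 (0.85) and the Dlg2 locus (0.80) were also higher, and Nlgn2 was lower (-1.07). Of 28 vesicle and growth cone genes, 8 were lower (28.6%, against 6.63% of all loci) and 1 higher (3.57%, against 6.66%). Without whole cell sample 3, 7 were lower (25%, against 3.41%) and 1 higher. Dpysl3, a collapsin response mediator, had 2181, 2452 and 2669 in nuclear and 4947, 6140 and 9164 in whole cell samples (-1.43), and Stmn3 (-2.04), Uchl1 (-1.44) and Gap43 (-1.46) were lower as well. Snap25, of the synaptic fusion complex, was the higher one (0.85). Channel genes had 4 higher (8.16%) and 2 lower (4.08%) of 49, shares near those of all loci, and 1 of the higher ones is the noncoding Kcnq1ot1, which the symbol pattern took in, and Scn9a (0.81), Kcnma1 (3.03) and Kcnh1 were the others. Kcnh1 was at 0 in all 3 whole cell samples. Of 22 immediate early genes 0 passed the test by limma or edgeR, and 1 was higher at an unadjusted p-value below 0.05.

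**Figure D3:**
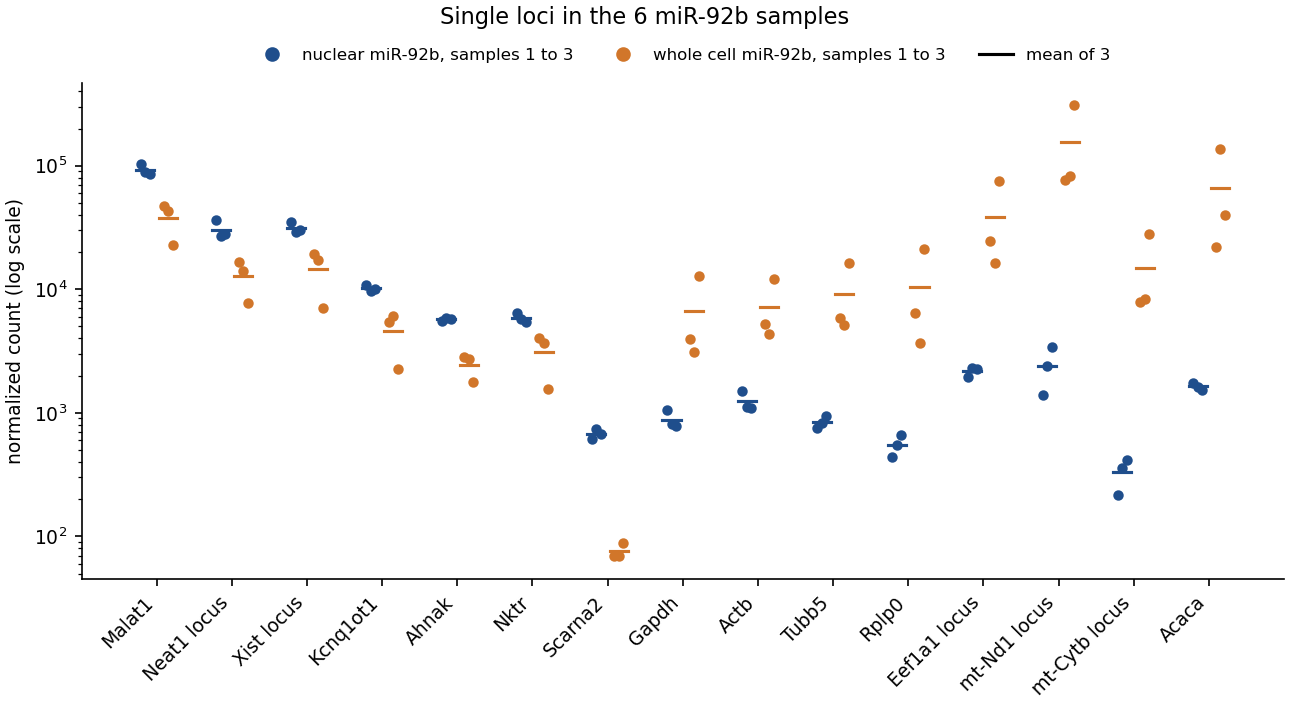
Normalized counts (y, log scale) of 15 loci in the 3 nuclear (blue) and 3 whole cell (orange) *miR-92b* samples, in the order 1 to 3 from left to right, with a bar at each mean. Nuclear and whole cell samples do not overlap at these loci, from Malat1 (at least 86148 against at most 47041) to Acaca (at most 1758 against at least 21856), and whole cell sample 3 is at the outer end of its group at most of them.

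The lengths and base composition of protein-coding genes, which the grouping did not use, moved with the direction. Gene length was split into quintiles of 2114 loci. The share of higher loci was 2.37% in the shortest quintile (median length 5010 bases) and 9.37% in the longest (142147 bases), while the share of lower loci went from 10.8% to 3.55%. By the longest annotated transcript, the shares of higher loci went from 2.08% to 8.66% and those of lower loci from 11.7% to 4.59%. By GC content of that transcript, the share of higher loci was 9.37% in the quintile with least GC (median 41.2%) and 1.09% in the quintile with most (57.9%), and lower loci made up 6.20% and 9.46%. These features go together in genes, and their parts in the difference were not tested separately. Mean counts also go with the test, as given above for the quintiles of mean count.

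**Figure D4:**
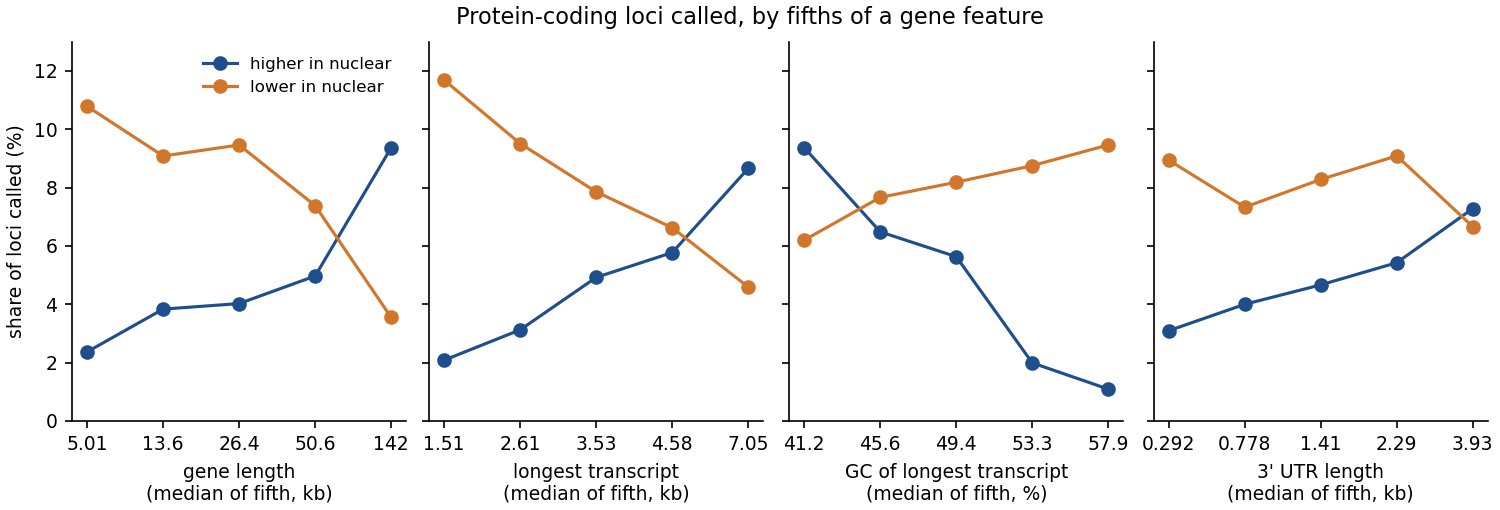
Share of protein-coding loci past the test (y, %) in quintiles of gene length, longest transcript, GC content and 3′ UTR length, with the median of each quintile on the x axis. Blue points, higher in nuclear samples, go from 2.37% to 9.37% with gene length and from 9.37% to 1.09% with GC content, and orange points are lower in nuclear samples.

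The seed of *miR-92b* gives a further feature to set beside the compartments. Sites of 7 or 8 bases (GTGCAAT or TGCAATA, the latter with the A opposite base 1, and GTGCAATA where they overlap) were searched on the transcript strand in the 3′ UTRs of 10511 tested protein-coding loci. A site was present in 1588 of them (15.1%), in 127 of 514 higher loci (24.7%) and in 106 of 847 lower loci (12.5%). The 8-base site was present in 298 loci (2.84%), in 21 of the higher (4.09%) and 20 of the lower ones (2.36%). The 3′ UTRs of higher loci were longer, with a median of 1903 bases against 1407 over all and 1357 in lower loci, and a longer UTR holds a site more often. Among the longest quintile of UTRs, 9.01% of 666 loci with a site and 6.48% of 1436 without one were higher, and 5.71% and 7.10% were lower. Among the shortest quintile, 3.17% of 63 loci with a site and 3.09% of 2040 without one were higher. In the 3 quintiles between them, from shorter to longer UTRs, the shares of higher loci with and without a site were 4.67% and 3.94%, 8.25% and 4.06%, and 8.13% and 4.78%. The part of UTR length in the difference was not tested. The median log2 difference was 0.09 with and -0.02 without a site, and after centring the medians were -0.05 with and -0.15 without one. In control cells, which had no mimic, the medians were 0.03 with and -0.15 without a site, and in Scr cells 0.02 and -0.13. With *miR-92b*, 127 of 1588 loci with a site and 387 of 8923 without one were higher. In control these numbers were 56 and 197, and in Scr 20 and 104. As shares of their loci, they differed most with *miR-92b*, less in control and hardly in Scr. A difference between the medians of loci with and without a site was thus also measured without *miR-92b*. Whether the part of the site differed between treatments was not tested. A match of letters does not show binding.

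Of 30 loci listed from knowledge of reported targets of the *miR-92* family, 17 were tested and 2 passed (11.8%, against 13.3% of all loci), a share near that of all loci. Dkk3, a secreted protein of the Dickkopf family whose site is printed above, had 814, 1012 and 1038 in nuclear and 1690, 1732 and 2377 in whole cell samples (log2 difference -1.01, SE 0.19, limma adjusted p = 0.000892). The locus of Cpeb2, which binds cytoplasmic polyadenylation elements, was higher (0.58). Among 16 Argonaute, TNRC6 and microRNA processing genes 2 passed as well (12.5%). The locus joining Ago2 and Ptk2 had 3532, 3420 and 3477 in nuclear and 4566, 4945 and 6043 in whole cell samples (log2 difference -0.57, SE 0.15, adjusted p = 0.0126). The Dgcr8 locus, for the partner of Drosha in the nucleus, had 1765, 1709 and 1659 against 1065, 1042 and 287 (1.32). The other loci with a printed site, chosen 2 per direction, had log2 differences of 0.77 (Avl9), 0.88 (Syne1), -0.65 (Atp2a2) and -2.30 (Pgam1).

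The compartments were also compared in the Scr and control cells, which share no samples with the *miR-92b* comparison. Nuclear Scr samples had 228 loci higher (1.46%) and 577 lower (3.7%) than whole cell Scr samples, 5.17% together. Control samples had 458 (2.94%) and 1077 (6.91%), 9.85% together. Of the 1038 loci higher with *miR-92b*, 965 had the same sign in Scr and 1005 in control, and 96 and 337 passed the test there in that direction. Of the 1033 lower loci, 1006 and 1031 had the same sign, and 404 and 775 passed. In each set, 0 loci passed the test in the opposite direction in Scr or control. The median difference of the higher loci was 1.16 with *miR-92b*, 0.54 in Scr and 0.76 in control, and of the lower loci -1.47, -0.94 and -1.40, where the *miR-92b* values are those that chose the loci. Malat1 differed by 1.37, 0.72 and 1.14 and Gapdh by -2.64, -1.71 and -2.71 with *miR-92b*, Scr and control.

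A compartment difference particular to *miR-92b* was tested as an interaction. Against Scr, limma called 1 of 15579 loci (0.00642%), with 1123 at an unadjusted p-value below 0.05. Against control it called 0, with 290 at an unadjusted p-value below 0.05, while DESeq2 called 40 against Scr and 3 against control. The called locus joins Pcmtd1, a protein with an isoaspartate methyltransferase domain and an 8-base site at position 464 of its 3746-base 3′ UTR, with Gm38372. It had 660, 584 and 688 in nuclear samples with *miR-92b* against 2188, 4905 and 1610 in whole cell ones (log2 difference -2.01, SE 0.28, limma adjusted p = 3.74e-05). In the other groups the ranges were 617 to 777 in nuclear Scr, 427 to 629 in whole cell Scr, 488 to 598 in nuclear control and 439 to 680 in whole cell control. The 3 whole cell *miR-92b* samples were thus above the other 15 samples, and the nuclear *miR-92b* samples lay among them. The compartment difference was 0.44 in Scr and 0.07 in control, so that the differences of differences were -2.45 against Scr (limma adjusted p = 0.0376) and -2.08 against control (adjusted p = 0.372). Over the alternatives the adjusted p-value against Scr ranged from 1.04e-05 to 0.412. The call was lost without whole cell *miR-92b* sample 1 (0.0634), without nuclear *miR-92b* sample 1, 2 or 3 (0.128, 0.201 and 0.105), without nuclear Scr sample 2 or 3 (0.0794 and 0.212) and without whole cell Scr sample 1 or 2 (0.17 and 0.105). It was 0.000397 without whole cell *miR-92b* sample 3. Against control it was 0.00464 without whole cell sample 3.

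A large difference between the compartments was also measured at Acaca, for acetyl-CoA carboxylase 1, which carries biotin as its cofactor. It had 1758, 1624 and 1530 in nuclear and 21856, 136586 and 40130 in whole cell samples (log2 difference -4.91, SE 0.41, limma adjusted p = 1.32e-07). It took 2.33% of the counts of whole cell sample 2 and no more than 0.0302% of those of a nuclear sample. The same difference was present without the mimic, with 1388 to 1710 in nuclear and 51837 to 83219 in whole cell control samples, and with Scr, with 1656 to 2014 and 37789 to 101787 (log2 differences -5.33 and -5.00). The locus joining Acacb, the second carboxylase, with Ung had 113, 68.0 and 79.7 in nuclear and 451, 1578 and 342 in whole cell samples (-2.86, adjusted p = 0.0245). Of the mitochondrial biotin enzymes, Mccc1 had 142, 131 and 66.9 against 130, 104 and 88.0, and Pcca had 114 to 137 against 84.2 to 175, which overlap (adjusted p = 0.984 and 0.927). The Acacb locus, Mccc1 and Pcca were chosen after their values were seen. Whole cell sample 2 was the highest of the *miR-92b* samples at Acaca, at the Acacb locus and at the Pcmtd1 locus.

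**Figure D5:**
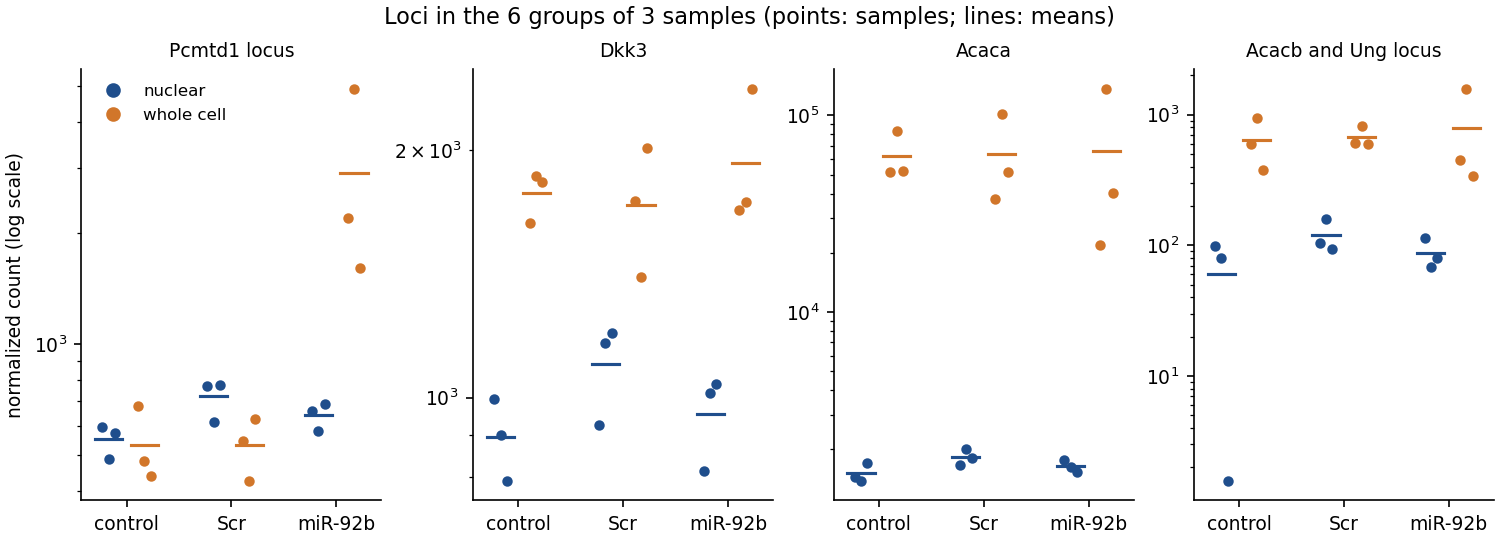
Normalized counts (y, log scale, a separate scale for each locus) of the Pcmtd1 locus, Dkk3, Acaca and the locus of Acacb and Ung in the control, Scr and *miR-92b* groups, with nuclear samples in blue, whole cell samples in orange and lines at the means. At the Pcmtd1 locus the whole cell *miR-92b* samples (1610 to 4905) lie above the 15 others, while Acaca is separated by compartment in each treatment.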

How the data were processed

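Poly(A)-selected RNA of 18 samples (6 groups of 3) was sequenced in libraries that keep strand. The authors demultiplexed the reads (bcl2fastq 2.17), trimmed them (Trimmomatic 0.30), aligned them to mm10 with TopHat2 and quantified them with Cufflinks (both of unstated version). For each locus, the authors deposited a normalized count, here handled as a signal value, and an FPKM value, fragments scaled by transcript length and library size. Deposited tables of the authors' own comparisons hold fold changes and p-values and were not used. Raw counts had been foreseen, but the files hold normalized counts, of which 635205 of 635205 values above 0 (100%) gave whole reads within 0.02 reads. Reads on loci with a symbol in the *miR-92b* samples numbered 4096874 to 16931731, and loci without a symbol took 4.51% to 14.8% of the reads.

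Loci with a symbol and a mean of at least 10 normalized counts over the 18 samples were tested on log2(normalized count + 1) with limma 3.58.1 (R 4.3.3), with a trend and 1 model for all 6 groups. Tests were two-sided, and p-values were adjusted by Benjamini-Hochberg over all tested loci, with a threshold of 0.05. edgeR 4.0.16 (quasi-likelihood) and DESeq2 1.42.0 on the recovered reads, the FPKM table, other pseudocounts, filters and scalings, a sample-number block and leaving out each sample were alternatives. Python 3.11.15 was used for tables. The scripts were tested on simulated data. Gene classes came from GENCODE M21, which matched 13850 of 14382 tested loci of 1 symbol. The rule named, per direction, the 10 largest differences among loci whose groups do not overlap with a mean of at least 50 in the higher group, the 5 smallest p-values, the 3 largest among Gm and RIKEN symbols, up to 3 called members of each gene list by mean, the fraction markers, Pcmtd1 and Ago2, and loci with a differing nuclear effect. The members and the gene lists were chosen with earlier results of these data known, and the Pcmtd1 locus was known from these same samples, so its values are no independent support. Some items are not reported here.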

Additional observations from a re-analysis of the deposited data

Results flagged for a closer look

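The Pcmtd1 locus (joined with Gm38372) differed between treatments in its compartment effect. The difference of nuclear minus whole cell values was -2.01 with *miR-92b* and 0.44 with Scr, a difference of -2.45 (limma adjusted p = 0.0376 over 15579 loci). The locus was already known from these samples.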

How the results depend on the processing

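The numbers of loci higher and lower in nuclear *miR-92b* samples (1038 and 1033) moved with the processing. With FPKM values, 349 were higher, and with the 2 compared groups fitted alone 134 were higher and 463 lower. Leaving out 1 sample gave 443 to 1731 higher and 531 to 1213 lower loci. For the difference of nuclear effects between *miR-92b* and Scr, 0 loci passed with a pseudocount of 0.5, a mean of at least 50, no filter, rescaled samples, the compared groups alone or the replicate block, 2 passed with FPKM values and 40 with DESeq2, and 0 to 5 without 1 sample. Against control, 1 passed with sample weights, 3 with DESeq2 and 0 to 1 without 1 sample. The difference at the Pcmtd1 locus against Scr stayed between -3.64 and -1.99 over 26 alternatives. With FPKM values 2 named loci changed sign, Chd6 (-0.045) and Cdk1 (-1.65). Of 144 loci named by the rule, 98 were not past the test under at least 1 alternative. The largest loss, 93 loci, came with the 2 compared groups fitted alone, and 49 were lost without whole cell sample 3. The cause was not tested.

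Same-numbered nuclear and whole cell samples did not deviate together (r = -0.025, 0.023 and -0.004). These values cannot settle whether same-numbered samples were prepared together. With the number as a replicate block, 1090 loci were higher and 1070 lower. Centring each sample on its median log2 ratio was added after seeing the data. The depth, 4096874 reads in the shallowest sample, limits the precision of loci with low counts.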

Other observations

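Other gene groups gave few loci past the test or mixed directions. Cyclins and cyclin-dependent kinases had 2 higher (7.69%, against 6.66% of all loci) and 3 lower (11.5%, against 6.63%) of 26 (median -0.19). Factors of the sympathetic lineage had 1 higher (6.67%), Isl1, and 2 lower (13.3%) of 15 (median 0.04, and -0.10 after centring). Subunits of the CCR4-NOT deadenylase had 1 higher and 1 lower of 11 (9.09% each). Genes of imprinted regions had 2 higher (10.5%) and 1 lower (5.26%) of 19. The lower one was Peg10, with 455, 326 and 387 normalized counts in nuclear against 1176, 1658 and 1781 in whole cell samples (log2 difference -1.97). Of 11 interferon response genes 0 passed the test with limma or edgeR, and 0 had an unadjusted p-value below 0.05. Among predicted genes with a Gm number 365 were higher and 79 lower of 3261, and among RIKEN clone genes 90 and 14 of 934, against 6.66% higher and 6.63% lower of all loci.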
